A study of Homo sapiens with 24 samples.

Results

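Glycolysis and hypoxia-response genes were examined in T-47D cells, an estrogen receptor-positive luminal human breast cancer cell line, after stimulation with heregulin (HRG), a growth factor that binds ErbB3 and ErbB4. The set was chosen with earlier results of these data known. Its members, 39 genes found by symbol, were glucose and lactate transporters, enzymes turning glucose into lactate, and kinases diverting pyruvate from mitochondria. HIF1A, its oxygen sensors and hypoxia-induced targets were also among the 39. Of these, 35 had a probe set paired with that symbol alone, exactly 1 each, out of 21042 probe sets with a symbol on the Affymetrix Human Gene 1.0 ST array. SLC16A1, SLC16A3 and CA9 had no probe set in the annotation used. The 5 probe sets of PGAM1 also carried another symbol, and the expression of these 4 members was not analysed here.

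The 24 arrays fell into 8 groups of 3 biological replicates. Cells transfected with P-Rex1 RNAi #1, with P-Rex1 RNAi #2 or with a non-target control duplex (NTC), and untransfected parental cells, were serum starved, and for the last 6 h they received either PBS as the vehicle or HRG at 20 ng/ml. Parental and NTC cells are together called the controls. P-Rex1 is an exchange factor that activates the GTPase Rac downstream of ErbB3, and the silencing arms address how far responses to HRG pass through it. The model is 1 cell line, silencing was transient, and PREX1 mRNA was reduced but still measured in every silenced array. All values are log2 expression per probe set, so differences of 1 correspond to a doubling, and levels are compared between groups for 1 gene and never between genes. Because whole cultures were measured, less RNA in every cell and fewer cells holding the RNA cannot be told apart. A gene counts as called where a single limma model of all 24 arrays gave it an adjusted p under 0.05 together with more than a 1.5-fold change.

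As background, glycolysis splits glucose into pyruvate, and hexokinase, phosphofructokinase and pyruvate kinase catalyse its irreversible steps. Several steps are served by isoenzymes, and tumor cells often favour the forms induced by growth factors or by low oxygen, such as HK2, PFKP and PFKFB3. HIF1A is a transcription factor whose protein is marked for destruction by the prolyl hydroxylases EGLN1 and EGLN3 when oxygen is present, so its activity is set largely at the protein level, which arrays do not measure. HIF binds a short core element near many glycolytic genes and near VEGFA, and EGLN3 is itself induced by HIF.

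To show the promoters behind the genes described below, the 250 bases before each annotated gene start were read from RefSeq (GRCh38.p14) and searched on both strands for the core of the HIF element, which is ACGTG or GCGTG and on the other strand reads CACGT or CACGC. Where both strands match at CACGTG, both were counted, and that palindrome is at the same time the E-box bound by MYC and other factors. Sequences were read for 33 of the 39 member symbols, among them SLC16A3, CA9 and PGAM1, whose expression was not analysed. The core occurred in 27 of these 33 members (81.8%), SLC16A3 and CA9 included, against 47.4% of the 27305 genes searched. Over single windows it occurred in 35 of 60 member windows (58.3%), against 43.2% of 35116 windows. Genes with several annotated starts have more chances to match, and among those with a single window the count was 16 of 22 members, against 42.2% of genes. A core this short is frequent, and a match is a description of the sequence, not a bound site. The members include genes listed as hypoxia-induced targets, so a higher share among them could follow from the choice alone. Every form of the core also contains CG, and the genes were not matched for base composition. The stretches below are from genes that HRG changed or that differed between the silencing duplexes, 5′ to 3′ on the gene's strand, with matches in capitals. HK2 and PFKFB3 each have another annotated start, not printed, whose window also held the core. PFKP, PFKM and PDK1 have further windows without a match, which are not printed either.
ENO2, chr12:6914442-6914486, plus strand: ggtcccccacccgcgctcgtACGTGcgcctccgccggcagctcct
PFKP, chr10:3069030-3069074, plus strand: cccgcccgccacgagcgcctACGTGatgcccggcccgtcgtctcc
PFKP, another start, chr10:3104528-3104608, plus strand: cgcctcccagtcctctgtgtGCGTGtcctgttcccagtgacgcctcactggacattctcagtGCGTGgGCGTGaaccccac
HK2, chr2:74834956-74835124, plus strand: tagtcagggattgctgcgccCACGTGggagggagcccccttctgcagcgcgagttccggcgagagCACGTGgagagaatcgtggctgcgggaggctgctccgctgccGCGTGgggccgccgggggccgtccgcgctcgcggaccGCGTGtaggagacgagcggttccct
PFKFB3, chr10:6202804-6202849, plus strand: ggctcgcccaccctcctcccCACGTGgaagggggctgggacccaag
P4HA1, chr10:73096928-73096972, minus strand: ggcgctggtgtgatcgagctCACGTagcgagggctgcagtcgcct
PDK1, chr2:172556053-172556089, plus strand: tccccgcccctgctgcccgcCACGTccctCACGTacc
BNIP3, chr10:131982003-131982086, minus strand: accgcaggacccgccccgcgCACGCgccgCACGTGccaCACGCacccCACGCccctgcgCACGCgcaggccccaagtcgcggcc
PFKM, chr12:48105339-48105383, plus strand: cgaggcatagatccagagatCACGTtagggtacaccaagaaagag
The windows of EGLN3, SLC2A1 and P4HA2, all higher with HRG by the adjusted p, held no match, as did those of PKM, LDHB and PGAM1, and PFKM, which was lower with HRG, held 1. SLC2A3, SLC16A1, VEGFA, PFKFB2, BNIP3L and NDRG1 were not searched here.

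The silenced gene was examined first. Without HRG, PREX1 measured 9.09, 8.91 and 8.98 with P-Rex1 RNAi #1 and 8.997, 8.97 and 9.03 with P-Rex1 RNAi #2, against 10.52, 10.36 and 10.38 in NTC cells and 10.63, 10.59 and 10.59 in parental cells. All 6 silenced arrays lay below all 6 control arrays (means 8.997 and 10.51, two-sided p = 0.00216 in an exact permutation test, which cannot give less with 6 against 6). The reduction was 2.87-fold for #1 (95% interval of the log2 difference -1.65 to -1.38, adjusted p = 1.61e-12) and 2.85-fold for #2 (-1.65 to -1.38, adjusted p = 1.76e-12). The duplexes differed from each other by 0.01 (-0.15 to 0.16, adjusted p = 0.984), so that they left nearly equal PREX1 mRNA. HRG itself lowered PREX1. The fall was 1.01 on the log2 scale in controls (SE 0.05, adjusted p = 7.89e-13), with 9.64, 9.52 and 9.50 in HRG-treated parental cells and 9.53, 9.52 and 9.30 in HRG-treated NTC cells. With HRG, silenced cells measured 8.60, 8.45 and 8.55 for #1 and 8.83, 8.57 and 8.80 for #2.

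Array medians lay between 6.04 and 6.18, and no pair of arrays was a duplicate (highest correlation 0.9986). Principal components explained 53.6% (the first) and 10.9% (the second) of the variance. The 4 arrays with the lowest values on the second are called below the 4 arrays apart on it. They were parental vehicle replicate 3 (-13.86), NTC HRG replicate 3 (-16.81), P-Rex1 RNAi #1 vehicle replicate 2 (-17.46) and P-Rex1 RNAi #2 HRG replicate 3 (-11.25). Other replicates were also spread there, with 11.7 and -2.38 for #2 HRG replicates 1 and 2. All 10 luminal markers lay above the array median on all 24 arrays. Of the measured markers of fibroblasts, leukocytes and endothelial cells, 12 lay below it on all 24, CD68 on 3 and COL1A1 on 0. NTC and parental cells without HRG did not differ in any of the 35 members at an adjusted p under 0.05 (4 at an unadjusted p under 0.05), and neither did their HRG effects (1 at an unadjusted p under 0.05). Over all probe sets, 0% were called in either comparison.

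HRG changed a part of the pathway. In controls, PFKP, EGLN3, ENO2, HK2 and SLC2A1 rose past 1.5-fold and no member fell past it, while most other enzymes of the glycolytic trunk moved little. In all, 5 of 35 members were called higher, against 2.6% of all 21042 probe sets, and 0 lower, against 2.69%. On the adjusted p alone, 21 members were higher and 5 lower, against 17.5% and 22% of all probe sets. The median HRG effect was 0.14 over the members and 0.00 over all probe sets. In parental cells alone, 5 members were called higher (2.86% of all probe sets) and 1 lower (2.41%). NTC cells gave 6 higher (2.64%) and 0 lower (3.37%). With P-Rex1 RNAi #1, 8 were called higher (2.52%) and 0 lower (1.15%), and with #2 it was 5 higher (1.07%) and 0 lower (0.656%). The comparisons in controls, parental and NTC cells share arrays. The members were chosen with earlier results of these data known. A higher share among them, here and in later paragraphs, could therefore follow from the choice alone.

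**Figure D1:**
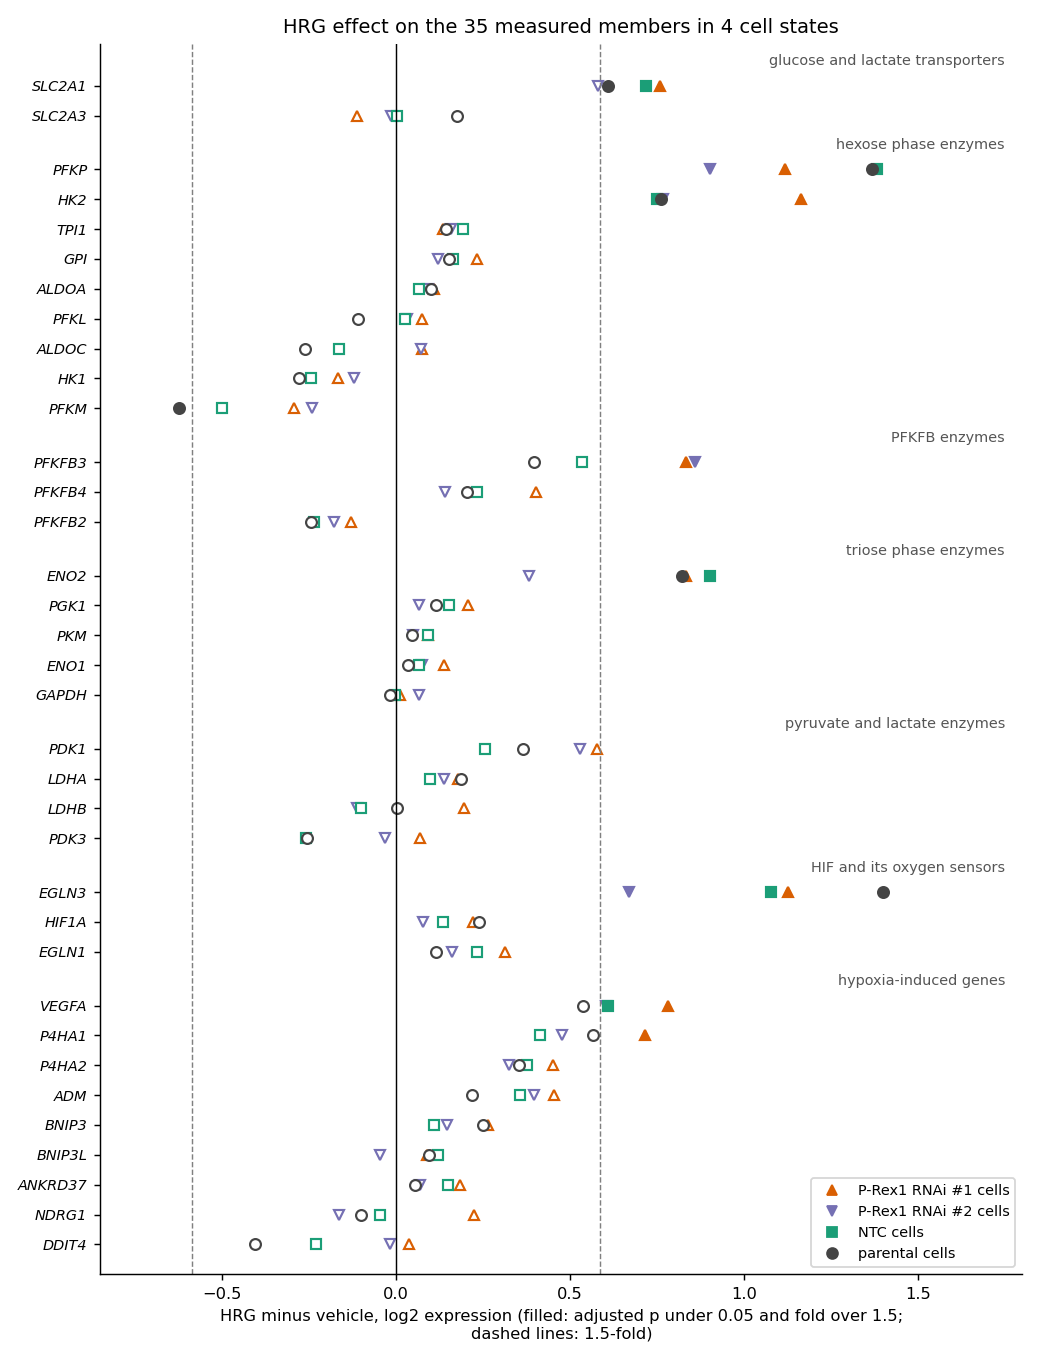
HRG minus vehicle (log2, horizontal axis) for each of the 35 members, in rows grouped by role, in cells with P-Rex1 RNAi #1 (orange up triangles), P-Rex1 RNAi #2 (purple down triangles), NTC (green squares) and parental cells (grey circles). Filled symbols passed both thresholds and dashed lines mark 1.5-fold. PFKP and EGLN3 lie farthest to the right in parental and NTC cells, HK2 does with #1 and PFKP with #2, and PFKM is farthest to the left in parental cells.

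Among the transporters, SLC2A1, which encodes the glucose transporter GLUT1, was called higher. Parental cells gave 9.82, 9.91 and 10.01 with HRG, against 9.21, 9.32 and 9.39 with vehicle. NTC cells gave 9.93, 9.95 and 10.13 with HRG, against 9.29, 9.28 and 9.28 with vehicle. All 6 HRG-treated control arrays exceeded all 6 vehicle arrays. The rise in controls was 1.58-fold (log2 0.66, SE 0.06, adjusted p = 6.18e-09). It was 1.69-fold with P-Rex1 RNAi #1 (10.03, 10.21 and 10.25 with HRG, against 9.25, 9.50 and 9.46). With #2 it came to 0.58 on the log2 scale, just short of the fold threshold (9.48, 9.63 and 9.62 with HRG, against 8.84, 8.97 and 9.18, adjusted p = 4.77e-05). SLC2A3, encoding the transporter GLUT3, had a probe set below the 25% quantile on all 24 arrays, between 3.63 and 4.12, and its HRG effect in controls was 0.09 (adjusted p = 0.319). A signal this dim gives little room to see a change.

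The enzymes from glucose to glyceraldehyde phosphate, here called the hexose phase, divided by isoenzyme. HK2, the inducible hexokinase, rose, and HK1, the widely expressed form, was lower by the adjusted p alone. HK2 measured 8.85, 8.86 and 8.96 in parental cells with HRG, against 8.06, 8.06 and 8.26 with vehicle. In NTC cells it measured 9.05, 9.02 and 8.90 with HRG, against 8.32, 8.29 and 8.10. The groups did not overlap, and the rise in controls was 1.69-fold (log2 0.76, SE 0.05, adjusted p = 9.87e-11). HK1 measured 8.84, 8.84 and 8.89 in parental cells with HRG, against 9.14, 9.18 and 9.07 with vehicle, and 8.92, 8.96 and 8.85 in NTC cells with HRG, against 9.16, 9.23 and 9.06. Its HRG effect was -0.26 in controls (SE 0.04, adjusted p = 1.58e-05), a 1.2-fold difference and under the fold threshold.

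Phosphofructokinase showed the widest split. PFKP, the platelet-type subunit, measured 10.39, 10.30 and 10.44 in parental cells with HRG, against 8.95, 9.05 and 9.02 with vehicle. NTC cells gave 10.42, 10.41 and 10.44 with HRG, against 9.02, 9.07 and 9.04. This was a 2.59-fold rise in controls (log2 1.37, SE 0.04, adjusted p = 5.67e-16), the largest among the 35 members there. PFKM, the muscle-type subunit, went the other way. It measured 8.71, 8.55 and 8.83 in parental cells with HRG, against 9.24, 9.34 and 9.37 with vehicle, and 8.76, 8.74 and 8.83 in NTC cells with HRG, against 9.31, 9.24 and 9.27 with vehicle. PFKM fell 1.54-fold in parental cells (adjusted p = 1.05e-07), where it was the 1 member called lower, and its difference was 1.41-fold in NTC cells and 1.48-fold over both (log2 -0.56, SE 0.05, adjusted p = 8.83e-10). Without parental HRG replicate 2 the parental difference was -0.55 and no longer past the fold threshold. PFKL, the liver-type subunit, had an effect of -0.04 (adjusted p = 0.52). Of the other hexose phase enzymes, GPI, TPI1 and ALDOA were higher by 0.16, 0.17 and 0.08 on the log2 scale (adjusted p = 0.0046, 0.0145 and 0.0375), and ALDOC had an effect of -0.21 (adjusted p = 0.0691).

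The PFKFB enzymes make and break down the fructose bisphosphate that activates phosphofructokinase. PFKFB3, the form whose kinase activity most exceeds its phosphatase activity, measured 9.84, 9.93 and 10.07 in parental cells with HRG, against 9.55, 9.62 and 9.47 with vehicle. In NTC cells it measured 9.90, 10.21 and 10.10 with HRG, against 9.42, 9.75 and 9.43. The effect in controls was 1.38-fold (log2 0.47, SE 0.07, adjusted p = 4.63e-06), below the fold threshold. PFKFB2 had an effect of -0.24 (SE 0.04, adjusted p = 1.82e-05), with 8.27, 8.30 and 8.38 in parental cells with HRG, against 8.59, 8.57 and 8.52 with vehicle, and 8.18, 8.10 and 8.10 in NTC cells with HRG, against 8.38, 8.30 and 8.41. PFKFB4 was higher by 0.22 (adjusted p = 0.0155).

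In the triose phase, from glyceraldehyde phosphate to pyruvate, ENO2 was the 1 gene called. This enolase, often named for neurons, measured 7.82, 7.69 and 8.05 in parental cells with HRG, against 6.92, 7.06 and 7.12 with vehicle. NTC cells gave 7.83, 7.83 and 8.04 with HRG, against 6.97, 6.93 and 7.09. The rise in controls was 1.82-fold (log2 0.86, SE 0.07, adjusted p = 2.09e-09). PGK1, phosphoglycerate kinase, was higher by 0.13 (SE 0.03, adjusted p = 0.00107), with 11.81, 11.76 and 11.79 in parental cells with HRG, against 11.64, 11.71 and 11.68 with vehicle, and 11.90, 11.88 and 11.85 in NTC cells with HRG, against 11.73, 11.75 and 11.69 with vehicle. Here the groups were separate although the change was small. The effects on GAPDH, ENO1, the common enolase, and PKM, pyruvate kinase, were -0.01, 0.05 and 0.07 (adjusted p = 0.881, 0.404 and 0.127).

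**Figure D2:**
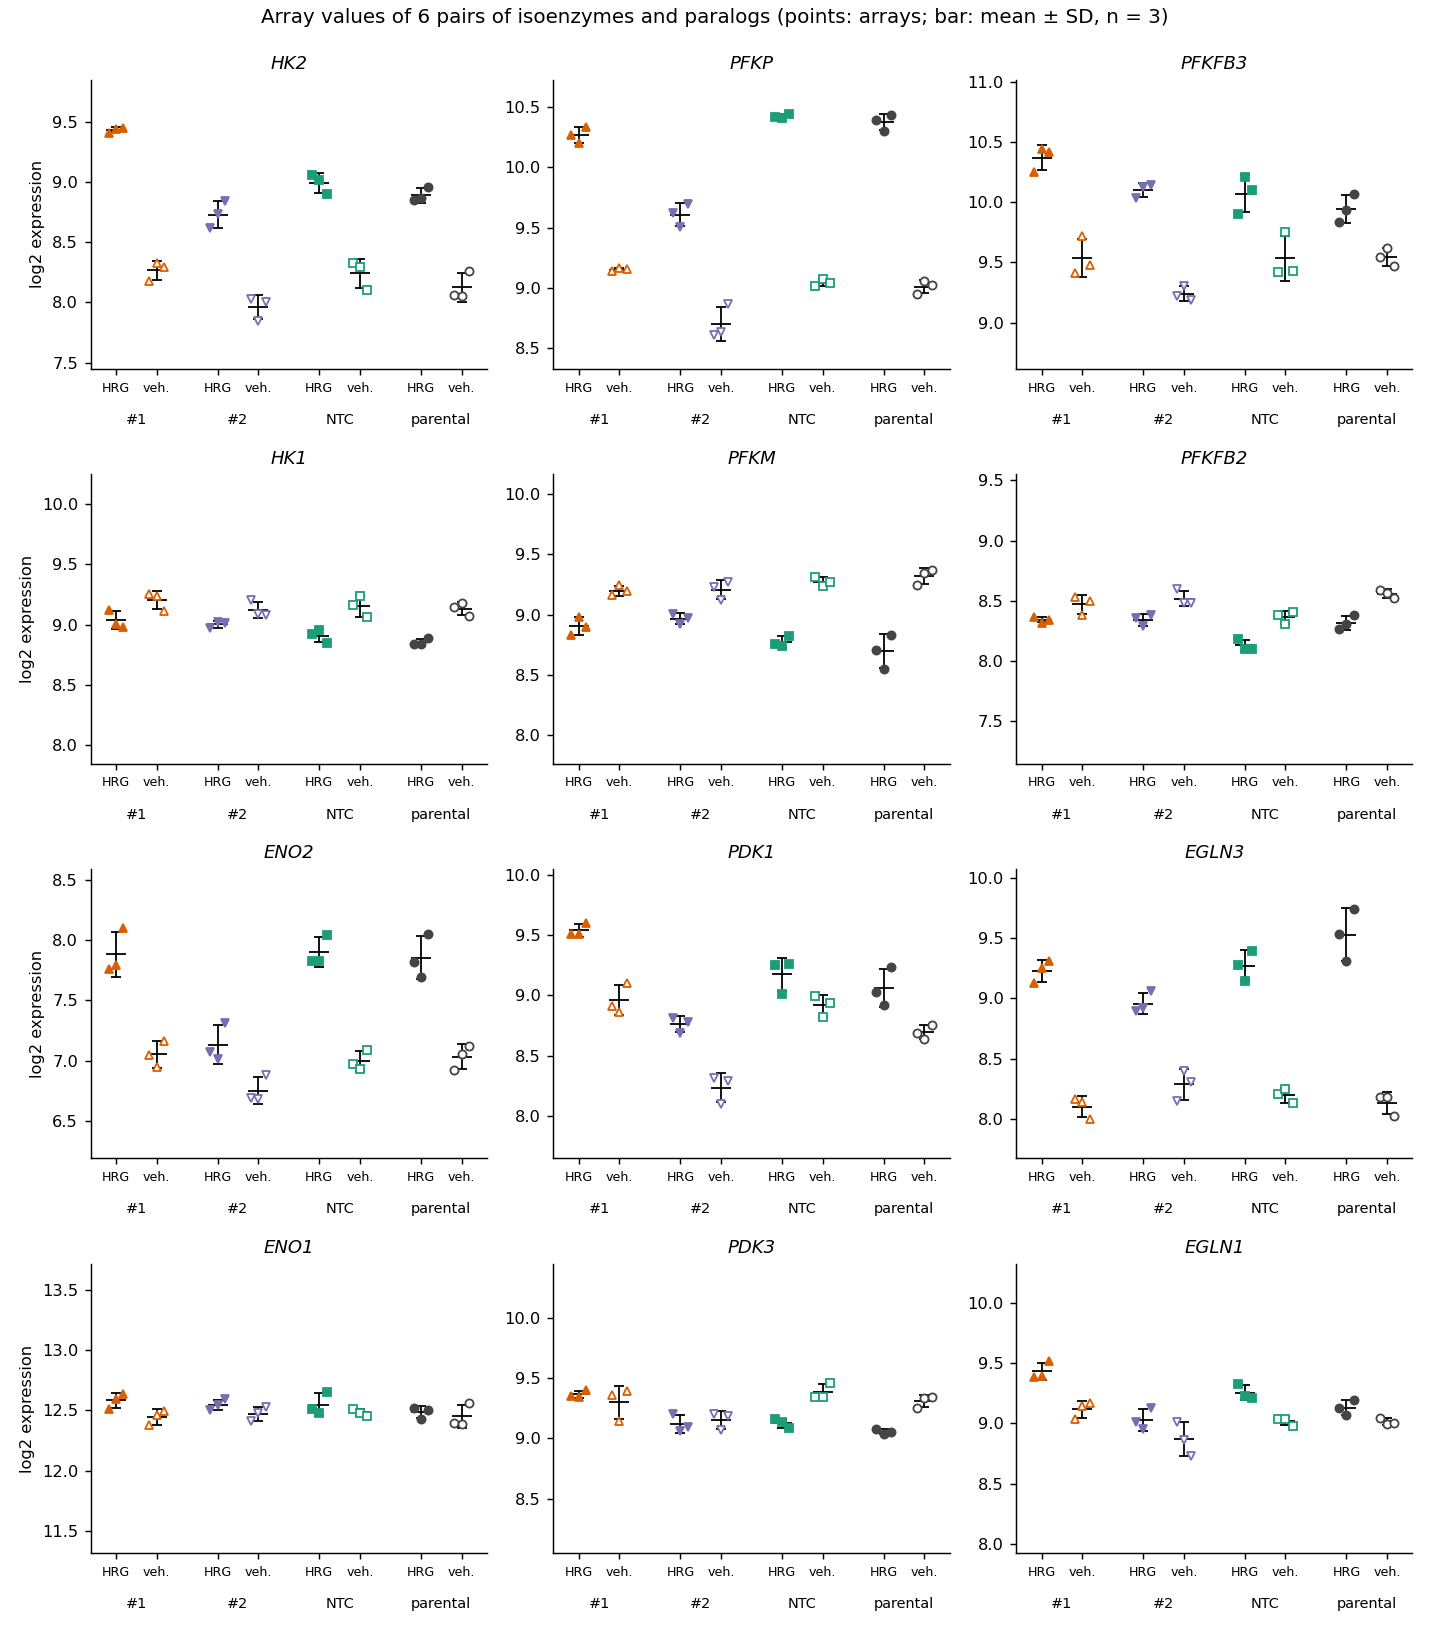
Log2 expression on each array (points) with the group mean and SD (bars, n = 3) for 6 pairs of related genes: HK2 and HK1, PFKP and PFKM, PFKFB3 and PFKFB2, ENO2 and ENO1, PDK1 and PDK3, EGLN3 and EGLN1, with HRG and vehicle side by side in each cell state. Every panel spans the same range of log2 units but starts at its own level. HRG arrays lie above vehicle arrays for PFKP and below them for PFKM in all 4 cell states.

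The pyruvate dehydrogenase kinases, which turn off the entry of pyruvate into the citric acid cycle, moved apart as well. PDK1, a known HIF target, measured 9.03, 8.92 and 9.24 in parental cells with HRG, against 8.69, 8.64 and 8.75 with vehicle, and 9.25, 9.01 and 9.26 in NTC cells with HRG, against 8.99, 8.82 and 8.93 with vehicle. Its effect in controls was 0.31 (SE 0.06, adjusted p = 0.000171). PDK3 measured 9.08, 9.04 and 9.05 in parental cells with HRG, against 9.25, 9.34 and 9.34 with vehicle, and 9.16, 9.13 and 9.08 in NTC cells with HRG, against 9.35, 9.35 and 9.46 with vehicle. Its effect was -0.26 (SE 0.04, adjusted p = 3.76e-05). Neither reached 1.5-fold. LDHA, the lactate dehydrogenase subunit that is a HIF target, was higher by 0.14 (adjusted p = 0.00379), and LDHB had an effect of -0.05 (adjusted p = 0.726).

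HIF1A mRNA itself changed slightly. It measured 11.27, 11.37 and 11.32 in parental cells with HRG, against 11.13, 11.18 and 10.93 with vehicle, and 11.26, 11.31 and 11.30 in NTC cells with HRG, against 11.17, 11.15 and 11.15 with vehicle. The effect in controls was 0.19 (SE 0.05, adjusted p = 0.00182). It was 0.22 with P-Rex1 RNAi #1 (11.21, 11.31 and 11.30 with HRG, against 11.07, 11.04 and 11.05, adjusted p = 0.0133). With #2 the arrays overlapped, with 11.28, 11.18 and 10.99 for HRG, against 11.06, 11.06 and 11.09 for vehicle (log2 0.08, adjusted p = 0.527).

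EGLN3, a prolyl hydroxylase and itself a hypoxia-induced gene, rose more in controls than any other member except PFKP. Parental cells gave 9.53, 9.31 and 9.74 with HRG, against 8.18, 8.19 and 8.03 with vehicle. NTC cells gave 9.28, 9.14 and 9.40 with HRG, against 8.21, 8.24 and 8.13. The rise was 2.36-fold in controls (log2 1.24, SE 0.07, adjusted p = 9.59e-13), 2.64-fold in parental cells and 2.11-fold in NTC cells. EGLN1, the main oxygen sensor, was higher by 0.17 (SE 0.05, adjusted p = 0.0041), with 0.12 in parental cells and 0.23 in NTC cells.

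Among the 9 hypoxia-induced genes measured, 0 were called in controls, against 2.6% of all probe sets higher and 2.69% lower. By the adjusted p, 6 were higher and 1 lower, against 17.5% and 22%. VEGFA, the angiogenic growth factor, measured 8.92, 9.05 and 9.22 in parental cells with HRG, against 8.45, 8.57 and 8.56 with vehicle, and 9.16, 9.15 and 9.26 in NTC cells with HRG, against 8.54, 8.62 and 8.58 with vehicle. Its effect was 1.49-fold in controls (log2 0.57, SE 0.06, adjusted p = 9.59e-08), and it passed the fold threshold in NTC cells (1.52-fold, adjusted p = 1.04e-05), though not without NTC HRG replicate 3 (log2 0.57). P4HA1, a subunit of collagen prolyl hydroxylase, measured 9.42, 9.32 and 9.45 in parental cells with HRG, against 8.97, 8.89 and 8.63 with vehicle, and 9.46, 9.43 and 9.26 in NTC cells with HRG, against 9.02, 9.002 and 8.87 with vehicle. This was a 1.4-fold difference (log2 0.49, SE 0.05, adjusted p = 7.2e-08). The related P4HA2 was higher by 0.37 (SE 0.05, adjusted p = 5.94e-07). ADM, the vasodilator adrenomedullin, was higher by 0.29 (adjusted p = 0.0199), and the mitophagy receptors BNIP3 and BNIP3L were higher by 0.18 and 0.11 (adjusted p = 0.0065 and 0.0169). DDIT4, an inhibitor of mTOR complex signaling that hypoxia and other stresses induce, had an effect of -0.32 (adjusted p = 0.00609). NDRG1 and ANKRD37 had effects of -0.07 and 0.10 (adjusted p = 0.276 and 0.075). Members that low oxygen induces thus differed in direction and size, and EGLN3 stood well above VEGFA, NDRG1 and DDIT4.

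The response to HRG was then compared between silenced and control cells, with PREX1 similarly low under both duplexes without HRG. With HRG, mean PREX1 was 8.53 for #1 and 8.73 for #2, against 9.45 in NTC and 9.55 in parental cells. The gap between silenced and control cells was thus smaller with HRG than without. Members kept their direction where HRG had raised them most, but the size of the response differed in both directions. With P-Rex1 RNAi #1 the members called higher with HRG were SLC2A1, HK2, PFKP, PFKFB3, ENO2, EGLN3, VEGFA and P4HA1, and with #2 they were HK2, PFKP, PFKFB3, EGLN3 and VEGFA. Whether a gene's response differed from controls was tested as the difference of HRG effects, silenced minus control. With an adjusted p under 0.05 and a fold over 1.5, 0 of 35 members were called for #1, #2 or both duplexes together, and 0.171%, 0.779% and 0.361% of all probe sets were. On the adjusted p alone, 2 members differed for #1 (1.16% of all probe sets, 9 members at an unadjusted p under 0.05), 4 for #2 (3.94%, 8 members) and 5 for both together (5.8%, 10 members). These comparisons share the 12 control arrays. The median difference over the members was 0.10 for #1, -0.01 for #2 and 0.06 for both. Over all probe sets, HRG called 226 higher and 138 lower with #2. The counts were 530 and 243 with #1, 555 and 709 in NTC cells and 601 and 507 in parental cells. For the #2 difference itself, 35 probe sets were called higher and 129 lower. Smaller responses to HRG with #2 were thus seen across the array, not only in members.

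PFKP responded less to HRG after silencing. It measured 10.27, 10.20 and 10.34 with HRG and P-Rex1 RNAi #1, against 9.14, 9.16 and 9.15 with vehicle, a 2.17-fold rise. With #2 it measured 9.62, 9.50 and 9.69, against 8.61, 8.64 and 8.87, a 1.87-fold rise, where controls gave 2.59-fold. The difference from controls was -0.47 for #2 (SE 0.08, 95% interval -0.63 to -0.31, adjusted p = 0.000741), -0.26 for #1 (-0.42 to -0.10, adjusted p = 0.102) and -0.36 for both together (SE 0.06, adjusted p = 0.00135). The difference for #2 passed without any 1 of the 18 arrays in it and with NTC alone as the control.

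For PFKM the lower level after HRG was smaller in silenced cells. It measured 8.83, 8.99 and 8.90 with HRG and P-Rex1 RNAi #1, against 9.16, 9.24 and 9.19 with vehicle, and 9.01, 8.92 and 8.97 with HRG and #2, against 9.23, 9.12 and 9.27 with vehicle. The difference of the HRG effects from controls was 0.32 for #2 (SE 0.08, 95% interval 0.16 to 0.48, adjusted p = 0.021), 0.27 for #1 (0.10 to 0.43, adjusted p = 0.088) and 0.29 for both together (SE 0.06, adjusted p = 0.00797). With NTC alone as the control it was 0.23 for both and did not pass (adjusted p = 0.0978), and without the 4 arrays apart on the second component the #2 difference was 0.32 (adjusted p = 0.057). By the measured effects, the 2 phosphofructokinase subunits that HRG moved apart in controls were moved less far apart with each duplex. For #1 alone neither difference passed. With NTC alone as the control, the PFKP differences for #2 and over both duplexes passed and those of PFKM did not.

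EGLN3 and ENO2 gave smaller rises with P-Rex1 RNAi #2, where HRG also called fewer of all probe sets higher than in controls. Whether these genes go beyond that wider difference was not tested. EGLN3 measured 8.89, 8.92 and 9.06 with HRG and #2, against 8.15, 8.40 and 8.31 with vehicle, a 1.59-fold rise. With #1 it measured 9.13, 9.25 and 9.31, against 8.17, 8.14 and 7.999, a 2.18-fold rise close to that in NTC cells. The difference from controls was -0.57 for #2 (SE 0.11, 95% interval -0.80 to -0.33, adjusted p = 0.00439) and -0.11 for #1 (-0.35 to 0.12, adjusted p = 0.605). Against NTC alone the difference for #2 was -0.41 (adjusted p = 0.106), since EGLN3 rose less in NTC than in parental cells. ENO2 measured 7.07, 7.01 and 7.31 with HRG and #2, against 6.69, 6.68 and 6.88 with vehicle, a difference of 1.3-fold (log2 0.38, adjusted p = 0.0132). With #1 it measured 7.76, 7.79 and 8.10, against 7.04, 6.95 and 7.17, a 1.78-fold rise. Its difference from controls was -0.48 for #2 (SE 0.13, 95% interval -0.74 to -0.22, adjusted p = 0.0338) and -0.03 for #1 (-0.29 to 0.23, adjusted p = 0.918). That passed in 9 of the 18 fits that left out 1 array and not with NTC alone (adjusted p = 0.0611).

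Other members responded more strongly after silencing. HK2 measured 9.41, 9.44 and 9.45 with HRG and P-Rex1 RNAi #1, against 8.18, 8.33 and 8.29 with vehicle, a 2.24-fold rise and above each of the other groups. With #2 it measured 8.61, 8.73 and 8.84, against 8.03, 7.85 and 8.01, a 1.7-fold rise, where controls gave 1.69-fold. The difference from controls was 0.41 for #1 (SE 0.09, 95% interval 0.22 to 0.60, adjusted p = 0.0328) and 0.01 for #2 (-0.18 to 0.20, adjusted p = 0.975). The #1 difference passed in 8 of the 18 fits that left out 1 array, and was 0.38 without the 4 arrays apart on the second component (adjusted p = 0.0998). PFKFB3 measured 10.25, 10.44 and 10.42 with HRG and #1, against 9.41, 9.72 and 9.48 with vehicle, and 10.03, 10.12 and 10.14 with HRG and #2, against 9.22, 9.31 and 9.19 with vehicle. Its rises of 1.78-fold and 1.81-fold exceeded that in controls by 0.38 over both duplexes (SE 0.09, 95% interval 0.18 to 0.58, adjusted p = 0.0195). Against NTC alone the excess was 0.31 (adjusted p = 0.131). For #2 the PFKFB3 mean with HRG was 10.10, close to 10.07 in NTC cells and above 9.94 in parental cells. Its vehicle mean with #2 was lower, at 9.24, against 9.53 in NTC cells and 9.55 in parental cells.

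PDK3, lower with HRG in controls, had HRG effects near 0 in silenced cells. It measured 9.35, 9.34 and 9.40 with HRG and P-Rex1 RNAi #1, against 9.36, 9.14 and 9.39 with vehicle, and 9.20, 9.06 and 9.10 with HRG and #2, against 9.20, 9.07 and 9.19 with vehicle. These effects were 0.07 and -0.03 (adjusted p = 0.441 and 0.832). The difference from controls was 0.33 for #1 (SE 0.08, adjusted p = 0.035) and 0.28 for both (SE 0.06, 95% interval 0.15 to 0.40, adjusted p = 0.00962). The difference for #1 passed in 7 of the 18 fits that left out 1 array and that for both in 24 of 24. Without the 4 arrays apart on the second component, which include #1 vehicle replicate 2, the difference for #1 was 0.23 (adjusted p = 0.212). PDK1, its relative, had HRG effects of 0.58 for #1 (9.51, 9.51 and 9.60 with HRG, against 8.91, 8.87 and 9.10) and 0.53 for #2 (8.81, 8.69 and 8.78 with HRG, against 8.31, 8.09 and 8.29). These were larger than in controls by 0.24 over both, which did not pass (adjusted p = 0.0976).

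For the 9 measured members grouped as hypoxia-induced genes, the HRG effects in silenced cells did not differ from controls past the threshold. At an unadjusted p under 0.05, 3 of them differed for #1 and 1 for #2. EGLN3, also induced by hypoxia but grouped with the oxygen sensors, is described above. VEGFA measured 9.11, 9.32 and 9.46 with HRG and P-Rex1 RNAi #1, against 8.40, 8.52 and 8.64 with vehicle (1.72-fold, adjusted p = 7.16e-07). With #2 it measured 8.84, 9.03 and 9.11, against 8.34, 8.37 and 8.45 (1.52-fold, adjusted p = 4.42e-05), a call lost without #2 vehicle replicate 1, #2 HRG replicate 2 or #2 HRG replicate 3 (log2 0.58, 0.58 and 0.55). P4HA1 measured 9.62, 9.73 and 9.67 with HRG and #1, against 9.02, 8.94 and 8.92 with vehicle (1.64-fold, adjusted p = 2.12e-07), and 9.21, 9.31 and 9.28 with HRG and #2, against 8.77, 8.84 and 8.76 with vehicle (log2 0.48, adjusted p = 8.61e-05).

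**Figure D3:**
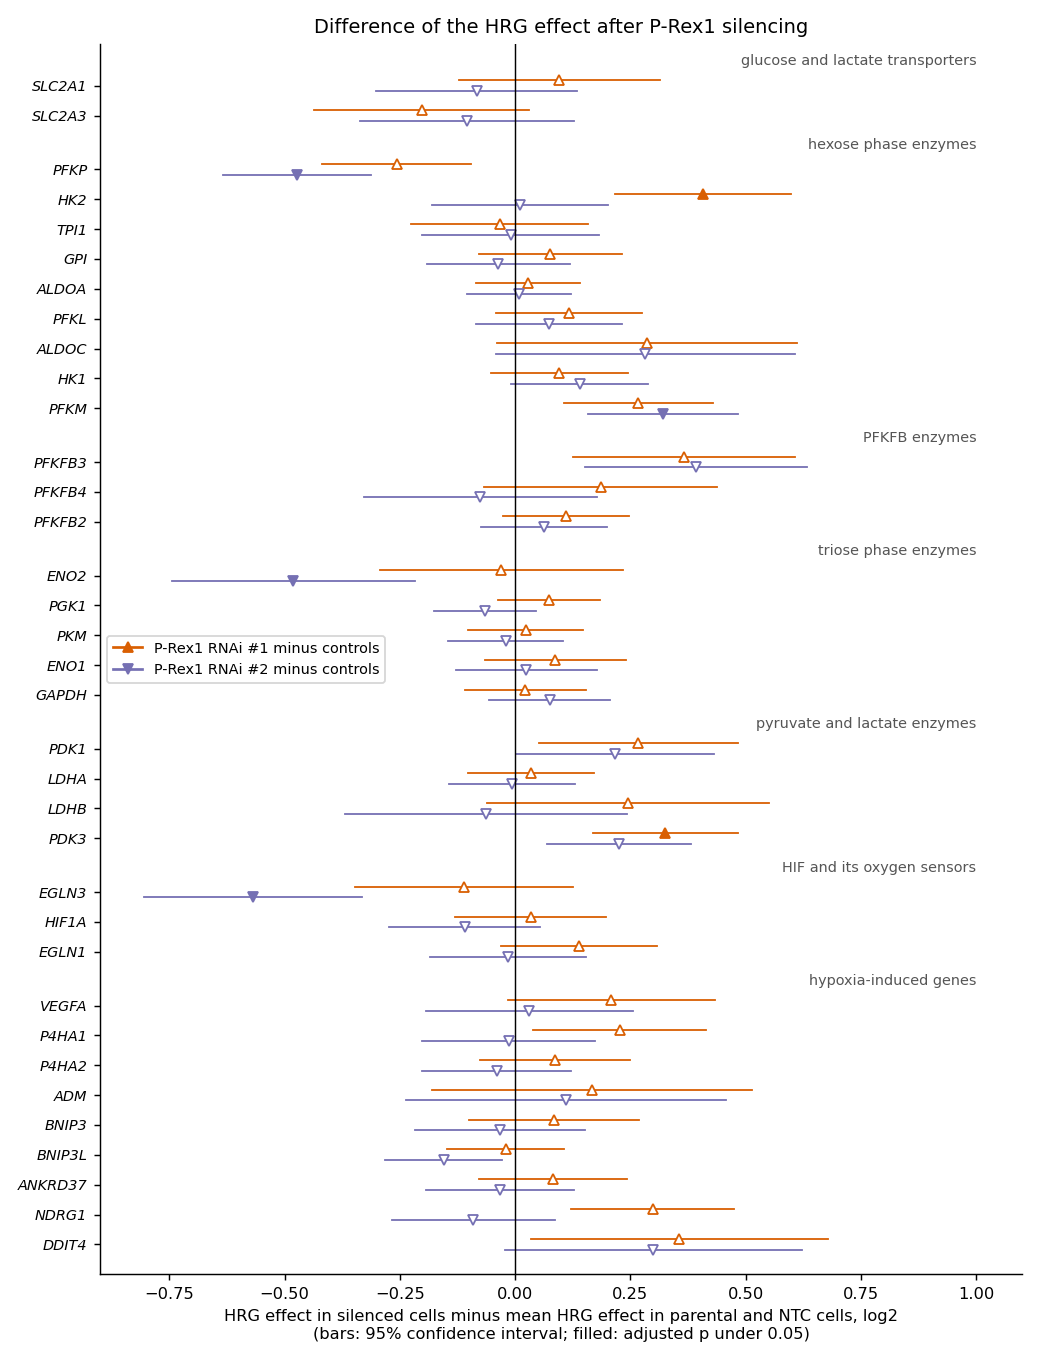
Difference of the HRG effect in silenced cells from that in controls (log2, horizontal axis) for the 35 members, with 95% intervals, for P-Rex1 RNAi #1 (orange) and P-Rex1 RNAi #2 (purple). Filled symbols have an adjusted p under 0.05. HK2 and PDK3 lie to the right for #1, PFKM lies to the right for #2, and PFKP, ENO2 and EGLN3 lie to the left for #2.

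The HRG effects of the duplexes were also set against each other. For P-Rex1 RNAi #2 minus #1, 0 of 35 members passed (0.0618% of all probe sets, 7 members at an unadjusted p under 0.05), with -0.46 for EGLN3 (adjusted p = 0.373), -0.45 for ENO2 (adjusted p = 0.477) and -0.40 for HK2 (adjusted p = 0.305). A difference seen with 1 duplex is therefore not shown to be particular to it.

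Without HRG, the duplexes did differ. With P-Rex1 RNAi #1, 0 of 35 members were called against the controls (0.0285% of all probe sets), and on the adjusted p alone 0 were lower (0.623%, with 5 members at an unadjusted p under 0.05 in either direction). With #2, 1 was called (0.181% of all probe sets), and 8 were lower on the adjusted p alone (2.59%, with 20 at an unadjusted p under 0.05 in either direction) and 0 higher. The median difference over the members was -0.14 for #2, against 0.01 over all probe sets, and 0.04 for #1.

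NDRG1, a hypoxia-induced gene linked to differentiation, was the 1 called. It measured 8.29, 8.30 and 8.39 with P-Rex1 RNAi #2, against 8.92, 9.02 and 9.06 with #1, 9.06, 8.99 and 9.06 in NTC cells and 8.91, 8.92 and 9.02 in parental cells, all without HRG. The #2 arrays lay below the other 9. It fell 1.59-fold against controls (log2 -0.67, SE 0.06, 95% interval -0.79 to -0.54, adjusted p = 4.11e-07). The difference for #1 was 0.01 (-0.12 to 0.13, adjusted p = 0.973). With HRG it measured 8.20, 8.02 and 8.26 for #2, against 9.14, 9.17 and 9.37 for #1, 9.03, 8.96 and 8.97 in NTC cells and 8.86, 8.75 and 8.95 in parental cells.

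PDK1 fell short of the fold threshold, with 8.31, 8.09 and 8.29 for P-Rex1 RNAi #2, against 8.91, 8.87 and 9.10 for #1, 8.99, 8.82 and 8.93 in NTC cells and 8.69, 8.64 and 8.75 in parental cells (log2 -0.57 against controls, SE 0.07, adjusted p = 5.68e-05). Against NTC alone it was called (log2 -0.68, adjusted p = 5.26e-05). BNIP3 was lower than in controls by 1.4-fold (log2 -0.48, adjusted p = 6.63e-05), with 10.40, 10.41 and 10.31 for #2, against 10.98, 11.06 and 11.22 for #1, 10.94, 10.97 and 10.90 in NTC cells and 10.90, 10.74 and 10.69 in parental cells. The other members lower on the adjusted p were P4HA2 (log2 -0.35, adjusted p = 0.000634), PFKP (-0.32, adjusted p = 0.00119), SLC2A1 (-0.30, adjusted p = 0.0254), PFKFB3 (-0.30, adjusted p = 0.045) and PDK3 (-0.20, adjusted p = 0.0437). BNIP3 and P4HA2 were singled out after their values were seen.

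A direct comparison of the duplexes without HRG was added after the values had been seen. For #2 minus #1, 3 members were called lower and 0 higher (0.147% of all probe sets): PDK1 (1.66-fold, log2 -0.73, adjusted p = 2.46e-05), BNIP3 (1.64-fold, log2 -0.71, adjusted p = 4.98e-06) and NDRG1 (1.6-fold, log2 -0.67, adjusted p = 5.03e-06). On the adjusted p alone, 10 were lower, against 1.34% of all probe sets, and 0 higher. Besides those 3 they were PFKP (-0.45, adjusted p = 0.000333), SLC2A1 (-0.41, adjusted p = 0.0118), GPI (-0.33, adjusted p = 0.00494), TPI1 (-0.33, adjusted p = 0.0203), HK2 (-0.31, adjusted p = 0.0313), P4HA2 (-0.30, adjusted p = 0.0145) and PKM (-0.20, adjusted p = 0.0317). PREX1 differed by 0.01 in the same comparison. The arrays carry no separate check of other transcripts that either duplex may bind, and the part of such binding in these differences was not tested.

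**Figure D4:**
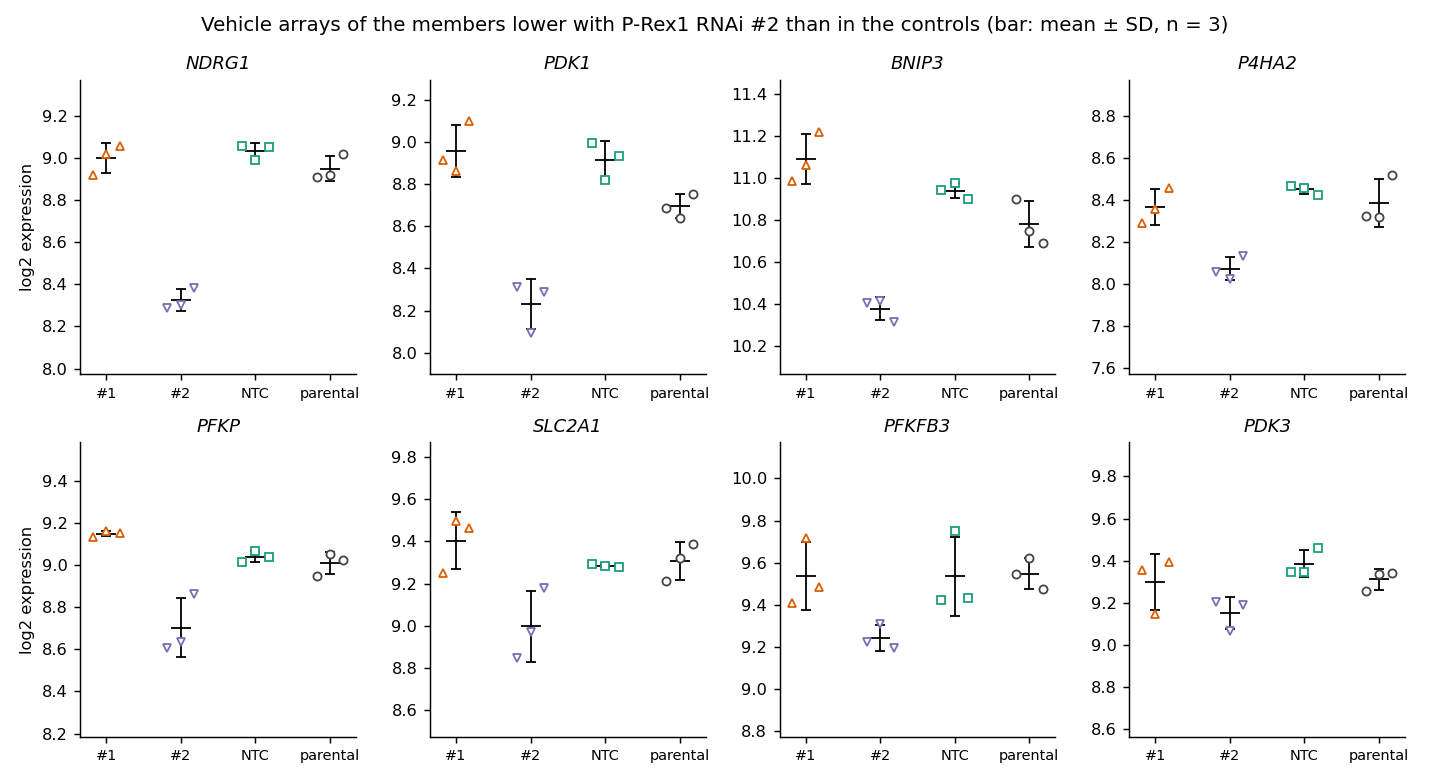
Log2 expression on each vehicle array (points) with the group mean and SD (bars, n = 3) in P-Rex1 RNAi #1, P-Rex1 RNAi #2, NTC and parental cells, for the 8 members with an adjusted p under 0.05 in #2 against controls. For every member plotted except PDK3, which overlaps, all #2 arrays lie below all other arrays. The members were picked by this same comparison, so their separation from the control arrays adds no support to it.

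Genes of neighboring pathways were counted from lists drawn up alongside the members. For reading these counts, HRG in controls called 2.6% of all probe sets higher and 2.69% lower, and by the adjusted p alone 17.5% and 22%. It called 1 of 30 other glycolysis and gluconeogenesis genes higher and 1 lower (5 and 7 on the adjusted p, median -0.05), near the shares over all probe sets. TIGAR, a bisphosphatase that restrains glycolysis, rose 1.64-fold (log2 0.71, adjusted p = 3.32e-07), and PDK2, another pyruvate dehydrogenase kinase, fell 2.1-fold (log2 -1.07, adjusted p = 7.95e-14). PDK2 had effects of -0.84 with P-Rex1 RNAi #1 and -0.57 with #2, and its HRG effect differed from that in controls by 0.51 for #2 (adjusted p = 0.000812) and by 0.37 over both duplexes (adjusted p = 0.0024). Among the PDK genes, then, PDK1 was higher with HRG in controls while PDK2 and PDK3 were lower.

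Of 34 other HIF regulators and hypoxia-induced genes, 2 were called higher with HRG in controls and 0 lower (13 and 12 on the adjusted p, median 0.05), beside 2.6% and 2.69% of all probe sets (17.5% and 22% on the adjusted p). ANGPTL4, an inhibitor of lipoprotein lipase, rose 1.83-fold (log2 0.87, adjusted p = 3.66e-11), with effects of 1.13 and 0.86 for #1 and #2. ERO1A, which oxidizes disulfide isomerase in the endoplasmic reticulum, rose 1.61-fold (log2 0.68, adjusted p = 2.8e-12), and its effect differed from controls by -0.40 for #2 (adjusted p = 0.000813). AK4, an adenylate kinase of mitochondria that hypoxia induces, singled out after its values were seen, fell 1.99-fold with #2 without HRG (log2 -0.99, adjusted p = 7.03e-11), against a difference of 0.08 with #1 (adjusted p = 0.607).

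The pentose phosphate pathway had 0 of 6 genes called with HRG in controls (2 higher and 0 lower on the adjusted p, median -0.01), and pyruvate dehydrogenase with the citric acid cycle had 0 of 19 (3 higher and 8 lower, median -0.09), beside 2.6% and 2.69% of all probe sets (17.5% and 22% on the adjusted p). In the pentose phosphate list RPIA, ribose phosphate isomerase, also singled out after its values were seen, fell 1.55-fold with P-Rex1 RNAi #2 against controls without HRG (log2 -0.63, adjusted p = 2.13e-06), where 0.181% of all probe sets were called in either direction, and was lower by 1.51-fold in #2 against #1 without HRG (log2 -0.60, adjusted p = 4.89e-05), with a difference of -0.03 for #1 against controls (adjusted p = 0.873). Of 5 genes regulated by the glucose-sensing factors MondoA and ChREBP or encoding them, 1 was called higher and 0 lower (2 and 0 on the adjusted p, median 0.11), beside the same shares of all probe sets. This was ARRDC4, an arrestin-related protein that limits glucose uptake, which rose 2.02-fold (log2 1.02, adjusted p = 5.64e-13), with effects of 0.93 for #1 and 0.64 for #2 and a difference of -0.38 from controls for #2 (adjusted p = 0.0169).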

How the data were processed

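RNA from 24 T-47D cultures was hybridised to Affymetrix Human Gene 1.0 ST arrays. The log2 values deposited by the authors cover 28536 probe sets and were background-adjusted, quantile normalised and summarised by RMA, with the package simpleaffy (version not given in the sources used here). Columns not used numbered 0. RMA compresses differences between dim probe sets, and the number of arrays limits the precision. In the platform annotation, 19292 probe sets carry a single symbol, 1750 carry several and 7494 carry none here. It names no genome build and gave no coordinates. Tests covered the 21042 that carry any symbol.

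Each of the 8 groups had its own mean in a linear model over the 24 arrays (limma 3.58.1 under R 4.3.3, with statmod 1.5.0), and Benjamini-Hochberg adjustment ran over all tested probe sets. On simulated data with 100 genes changed 2-fold and 100 changed 3-fold, the HRG comparison in parental cells recovered 99 and 100 with 0 false calls, and the difference of HRG effects for #2 against controls recovered 99 and 100 with 2 false calls. The planted changes were larger than any difference of HRG effects reported for a member, and the noise was drawn independently for each array. Recovery of smaller changes was not tested. Exact permutation tests of single values were run in Python 3.11.15. P-values measure the spread between cultures labelled as biological replicates, and no batch is labelled.

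The members and lists were chosen with earlier results of these data known. Array values are given for PREX1, HIF1A, members called with HRG in parental or NTC cells or in a comparison of silencing, and the 2 members of each role with the largest HRG effect in controls. Up to 4 called genes per comparison list are named. HK1, EGLN1, BNIP3, P4HA2 and others named beyond this rule were chosen after their values were seen. Alternatives covered the replicate block, filters, variance models, scaling, control group, thresholds, left-out arrays and the study's Rank Products test.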

Additional observations from a re-analysis of the deposited data

Results flagged for a closer look

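These HRG effects differed between silenced and control cells at an adjusted p under 0.05, as differences of log2 effects, silenced minus control. For P-Rex1 RNAi #1 they were HK2 (0.41, adjusted p = 0.0328), PDK3 (0.33, adjusted p = 0.035) and PREX1 itself (0.55, adjusted p = 0.00784). For P-Rex1 RNAi #2 they were PFKM (0.32, adjusted p = 0.021), PFKP (-0.47, adjusted p = 0.000741), ENO2 (-0.48, adjusted p = 0.0338), EGLN3 (-0.57, adjusted p = 0.00439), PREX1 (0.74, adjusted p = 3.06e-05), and, from the comparison lists, PDK2 (0.51, adjusted p = 0.000812), ERO1A (-0.40, adjusted p = 0.000813) and ARRDC4 (-0.38, adjusted p = 0.0169). Over both duplexes they were PFKM (0.29, adjusted p = 0.00797), PFKP (-0.36, adjusted p = 0.00135), PFKFB3 (0.38, adjusted p = 0.0195), PDK3 (0.28, adjusted p = 0.00962), EGLN3 (-0.34, adjusted p = 0.0326), PDK2 (0.37, adjusted p = 0.0024), ERO1A (-0.24, adjusted p = 0.0101) and PREX1 (0.65, adjusted p = 2.29e-05).

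These comparisons share the 12 control arrays, and 0 members passed in the test of #2 against #1. Against NTC alone, PFKP for #2 (-0.48, adjusted p = 0.00355), PFKP over both duplexes (-0.37, adjusted p = 0.0108) and PDK3 over both (0.28, adjusted p = 0.0438) passed, and the other members did not: HK2 for #1 (adjusted p = 0.068), PDK3 for #1 (adjusted p = 0.073), PFKM for #2 (adjusted p = 0.144), ENO2 for #2 (adjusted p = 0.0611), EGLN3 for #2 (adjusted p = 0.106), and over both duplexes PFKM (adjusted p = 0.0978), PFKFB3 (adjusted p = 0.131) and EGLN3 (adjusted p = 0.358). Without the 4 arrays apart on the second component, HK2 and PDK3 for #1 (adjusted p = 0.0998 and 0.212), PFKM for #2 (adjusted p = 0.057) and EGLN3 over both duplexes (adjusted p = 0.103) no longer passed. Leaving out 1 array at a time, PDK3 for #1 passed in 7 of 18 fits (0.25 to 0.37) and EGLN3 over both duplexes in 13 of 24 (-0.39 to -0.29). The part of these arrays in the differences was not tested further.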

How the results depend on the processing

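Counts of called members moved mainly with the fold threshold. With no fold threshold, HRG gave 14 higher and 5 lower in parental cells, 13 and 4 in NTC cells, 21 and 5 in controls, 20 and 2 with P-Rex1 RNAi #1 and 10 and 2 with #2, HRG effects differed from controls for 2 members with #1 (higher), 1 higher and 3 lower with #2, and 3 and 2 over both duplexes, and without HRG 8 were lower with #2 and 10 lower in #2 against #1. At 1.3-fold the counts were 8 and 2 in parental cells, 8 and 1 in NTC cells, 8 and 1 in controls, 12 and 0 with #1, 9 and 0 with #2, differences of 1 higher for #1, 3 lower for #2 and 1 higher for both, and without HRG 3 lower with #2 and 5 lower in #2 against #1. With NTC alone as the control, 2 were lower with #2 without HRG. Rank Products was run only for HRG in parental, NTC, #1 and #2 cells, and gave the main counts there. Leaving out 1 array at a time gave 4 to 6 higher and 0 to 1 lower in parental cells, 5 to 7 and 0 in NTC cells, 5 to 6 and 0 to 1 in controls, 8 to 9 higher with #1, 4 to 6 higher with #2, 0 to 1 lower for the difference with #2, 1 to 2 lower with #2 without HRG, and 3 lower in #2 against #1. SLC2A1 lost its call in parental cells when parental HRG replicate 3 or parental vehicle replicate 1 was left out (0.56 each). Named gene values gave 1457 results under alternatives, of which 1383 stayed on their side of the threshold, 74 fell short of it and 0 reversed. Leaving out the dimmest 25% of probe sets removed 2 members, and centring each array on its median moved the all-gene median by at most 0.0908. A mean over probe sets of a gene was not run, since each member had 1.

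The replicate block, with numbers 1 to 3 as a block, changed no count of members: 5 higher and 1 lower in parental cells, 6 and 0 in NTC cells, 5 and 0 in controls, 8 and 0 with #1, 5 and 0 with #2, 1 lower with #2 without HRG and 3 lower in #2 against #1. Same-numbered arrays correlated over 0.1 in 66 of 84 pairs (-0.29 to 0.56), 21 of 24 arrays were nearest to their own number, and the labels give the numbers no further meaning, so they were not taken as pairs.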
